A study of Mus musculus with 2 samples.

Results

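The genes described here are 9 mouse genes best known from microglia, the macrophages of the brain, and they were followed over the macrophages and monocytes of the injured newborn heart. They were taken by name from the 32285 features of the deposited count tables: *Fcrls*, *Olfml3*, *Gpr34*, *P2ry12*, *Tmem119*, *Sall1*, *St3gal6*, *Slco2b1* and *Slamf9*. They were chosen by their UMI levels in macrophages of these 2 libraries, seen in earlier results, so the levels by class of cell given below are a description and carry no test. 1 library came from WT mice and 1 from global *Lyve1* knockout mice (*Lyve1* KO, also written Lyve1-/-), both given a myocardial infarction on postnatal day 2 and taken at 9 days of age, 7 days after the injury, so neither library is uninjured. Each library pooled the heart ventricles of 5 animals, from which CD45+ 7AAD- (leukocyte, living) cells were sorted and put through 10x droplets with 5′ counting of unique molecular identifiers (UMIs, tags that mark single captured RNA molecules). No test between genotypes can be made from 1 library each, and every interval given is a 95% interval that covers counting error only.

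Microglia are long-lived tissue macrophages that arise early in embryonic life and are kept in the brain by signals that include CSF1 receptor ligands and TGF-beta. Their resting, or homeostatic, state is recognised by a set of transcripts for purine and lipid receptors, transporters and adhesion proteins, and *Sall1* is the transcription factor most often used to tell them from macrophages of other organs. Resident macrophages of other tissues, the heart among them, share several of these transcripts to varying extents, whereas circulating monocytes are low in most of them. Heart macrophages are commonly divided by CCR2, the receptor for the monocyte-drawing chemokine CCL2, into CCR2- cells, largely of embryonic origin and self-renewing, and CCR2+ cells, which are refilled from monocytes.

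After limits on cell quality, 4187 WT and 3391 *Lyve1* KO cells remained, with a median of 11106 and 12856 UMIs. Clusters were named from their markers, with the 9 genes themselves, related microglia genes and *Lyve1* kept out of the clustering. The CCR2- macrophage-like class held 1242 WT and 555 KO cells, or 29.7% [28.3–31.1] and 16.4% [15.1–17.7] of a library. The CCR2+ macrophage-like class held 190 and 185 cells and the monocyte-like class 477 and 541. *Ccr2* stood at 44.0 and 59.0 UMIs of the gene per 1000000 UMIs of the class (CPM) in the CCR2- class, against 629 and 759 CPM in the CCR2+ class and 801 and 763 CPM in monocyte-like cells. *Lyve1*, the deleted gene, encodes a hyaluronan receptor. In the CCR2- class its level was 528 CPM [520–537] for WT and 21.0 CPM [18.7–23.4] for KO. Elsewhere it was higher in the KO library than in the WT library, at 23.8 against 3.84 CPM in CCR2+ macrophages, 4.03 against 0.12 CPM in monocytes, 5.36 against 0.33 CPM in B cells and 7.61 against 0.38 CPM in T cells. The libraries also differed in the sex-linked transcripts of their cells, and not in the same direction in every class. In the CCR2- class 65.8% of WT and 50.1% of KO cells carried male-linked transcripts and 25.8% and 40.2% female-linked ones. In T cell-like cells 36.2% of WT and 55.1% of KO cells carried male-linked ones.

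In the GRCm38 annotation the genes lie apart from each other on 7 chromosomes. *Fcrls* is at chr3:87250758-87263738, *Olfml3* at chr3:103722222-103738001 and *P2ry12* at chr3:59216272-59262871, all 3 on the minus strand. *Gpr34* lies at chrX:13632089-13640858 on the plus strand and *Slamf9* at chr1:172475358-172478575 on the plus strand. *Tmem119* lies at chr5:113793729-113800516, *Sall1* at chr8:89027235-89044162, *Slco2b1* at chr7:99657804-99711340 and *St3gal6* at chr16:58468125-58524243, each on the minus strand. *Gpr34*, *P2ry12*, *St3gal6* and *Slco2b1* overlap genes of the other strand, among them *Cask*, *Med12l* and *Dcbld2*. RefSeq promoters (GRCm38.p6, 250 bases before and 50 after a gene's start) matched 7 of the 9, with none for *Gpr34* and *Tmem119*. Stretches before the RefSeq starts of *Fcrls*, *Olfml3* and *Slamf9* are printed as examples. Over the macrophage-like and monocyte-like clusters described below, *Olfml3* and *Slamf9* were more like each other than either was like *Fcrls*. Capitals mark GAGGAA, a core of sites for the macrophage factor PU.1, and CAGACA, a SMAD box of TGF-beta signalling. The stretches are at chr3:87263600-87263677 (minus strand, the 78 bases of the *Fcrls* window that hold no annotated exon, which end 75 bases before the RefSeq start and lie inside the longer gene span above), chr3:103738002-103738251 (minus strand) and chr1:172475110-172475357 (plus strand).
Fcrls: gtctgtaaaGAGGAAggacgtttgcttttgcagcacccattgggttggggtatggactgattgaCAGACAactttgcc
Olfml3: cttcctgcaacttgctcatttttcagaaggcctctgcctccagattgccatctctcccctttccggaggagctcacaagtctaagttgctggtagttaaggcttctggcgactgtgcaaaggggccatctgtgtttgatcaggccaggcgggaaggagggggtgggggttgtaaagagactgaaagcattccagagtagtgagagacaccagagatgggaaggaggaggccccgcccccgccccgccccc
Slamf9: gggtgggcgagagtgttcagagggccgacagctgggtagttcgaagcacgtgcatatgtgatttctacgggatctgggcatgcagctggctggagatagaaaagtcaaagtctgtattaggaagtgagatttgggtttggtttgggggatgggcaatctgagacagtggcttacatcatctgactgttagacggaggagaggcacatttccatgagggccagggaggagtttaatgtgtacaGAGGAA
The 7 genes have 12 such windows of 300 bases between them, since some have several starts. On either strand GAGGAA was found in 5 of the 12 windows (*Fcrls*, all of *Slco2b1*, and *Slamf9*), against 28.3% of 32851 mouse promoters of the same length. CAGACA was in 2 of the 12 (*Fcrls* and *Slco2b1*), against 21.0%, and TGCTGA, a core of MAF factor sites, in 1 (*Fcrls*), against 19.5%. The capitals in these windows mark letters only, and no binding was measured.

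Of the receptors among the 9 genes, *Fcrls*, *Gpr34*, *P2ry12* and *Slamf9* were all highest in CCR2- macrophage-like cells. *Fcrls*, an Fc receptor-like scavenger receptor, reached 802 CPM [792–812] there in the WT library and 643 CPM [630–656] in the KO library. CCR2+ macrophages gave 122 and 157 CPM of it, and monocyte-like cells 2.64 and 0.10 CPM, where 22 and 1 UMIs were counted. 1 WT cell held 36.4% of those 22 UMIs. *Fcrls* thus followed the order CCR2- macrophage-like, CCR2+ macrophage-like, monocyte-like in each library, with intervals that did not overlap between these 3 classes. *Gpr34*, a receptor for lysophosphatidylserine, reached 135 CPM [131–140] in WT CCR2- macrophages and 111 CPM [106–117] in those of the KO. The CCR2+ class had 28.0 and 18.9 CPM and monocytes 7.79 and 7.48 CPM, the same order. *P2ry12*, the ADP receptor that guides microglial processes and is also carried by platelets, stood at 166 CPM [161–171] and 129 CPM [124–135] in CCR2- cells. CCR2+ cells gave 37.2 and 26.1 CPM of it and monocyte-like cells 20.4 and 21.2 CPM. The KO intervals of the last 2 classes overlapped, and neutrophil-like cells, at 23.4 and 33.0 CPM, ranked below CCR2+ cells in WT and above them in KO. *Slamf9*, a SLAM family receptor of macrophages and dendritic cells, reached 188 CPM [183–193] and 131 CPM [126–137] in the CCR2- class, 82.8 and 95.9 CPM in the CCR2+ class and 10.1 and 6.42 CPM in monocytes, below the 17.8 and 25.7 CPM of B cell-like cells. It was the receptor with the smallest gap between both macrophage classes, 2.27-fold in WT and 1.37-fold in KO, against 6.59-fold and 4.08-fold for *Fcrls*.

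The secreted and membrane proteins differed from each other. *Olfml3*, a secreted olfactomedin-type glycoprotein, had levels of 62.0 CPM [59.2–64.9] and 57.4 CPM [53.6–61.3] in the CCR2- class, 16.2 and 27.4 CPM in the CCR2+ class and 0.72 and 1.73 CPM in monocytes (6 and 18 UMIs). *Tmem119*, a membrane protein much used as a microglia marker, did not separate the macrophage classes. It stood at 47.1 CPM [44.7–49.7] in CCR2- and 39.1 CPM [33.6–45.2] in CCR2+ cells of the WT library, which overlap. In the KO library it was higher in CCR2+ cells, at 45.6 CPM [40.1–51.6], than in CCR2- cells, at 34.1 CPM [31.2–37.2]. Monocyte-like cells held 11.1 and 4.70 CPM of it.

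The transporter had the widest fold gap between CCR2- macrophage-like cells and the next of the 6 classes, and the enzyme was higher in another class. *Slco2b1*, an organic anion transporter, reached 127 CPM [123–132] and 109 CPM [104–114] in the CCR2- class, 7.28-fold and 12.7-fold above the CCR2+ class (17.5 and 8.53 CPM). Only 3 and 1 UMIs of it were counted in monocyte-like cells. *St3gal6*, a sialyltransferase that caps surface glycans, stood at 97.7 CPM [94.1–101] and 89.1 CPM [84.4–94.0] in CCR2- cells, but neutrophil-like cells held 224 and 223 CPM. B cell-like cells held 40.1 and 50.5 CPM of *St3gal6* and CCR2+ macrophage-like cells 14.7 and 5.45 CPM. It was thus higher in CCR2- than in CCR2+ macrophages in each library, but was not particular to macrophages.

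*Sall1*, the transcription factor of the set, was not counted in any macrophage-like or monocyte-like cell. In cells thinned to 5800 UMIs, 0 of 1136 WT and 0 of 495 KO CCR2- macrophage-like cells held a *Sall1* UMI, which allows a share of up to 0.264% and 0.606% of cells with a UMI and sets no limit on cells that express the gene below detection. In both libraries alike 6 of the 9 genes were highest in the CCR2- class among the 6 classes compared, the exceptions being *Tmem119*, *St3gal6* and *Sall1*. *Tmem119* was highest there in WT, within overlapping intervals, and not in KO.

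**Figure D1:**
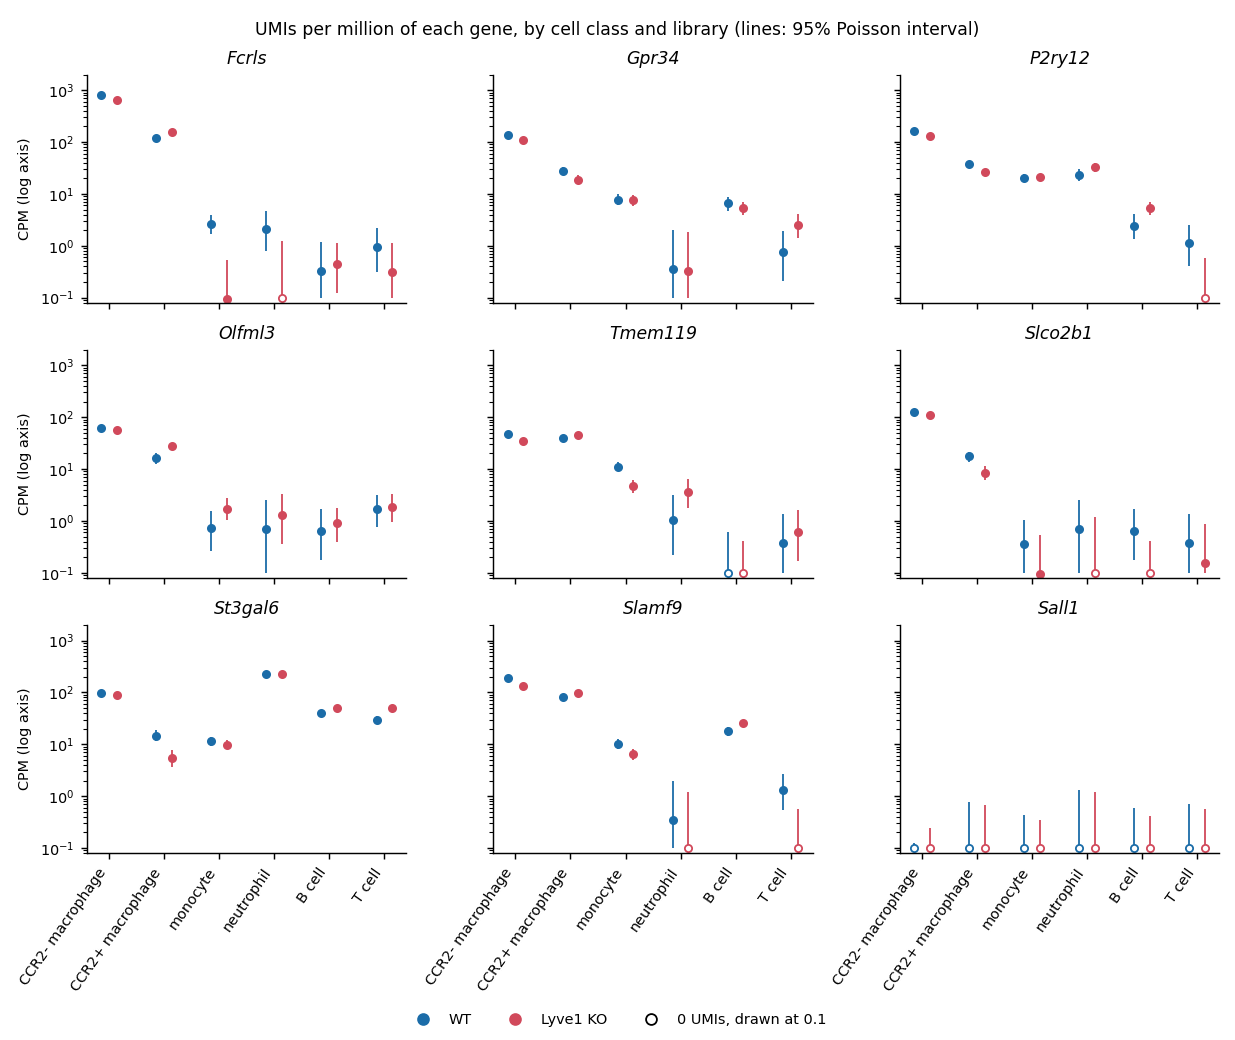
Level of each of the 9 genes (y axis, CPM of summed UMIs, log scale) in 6 classes of cells, 1 point per library with its exact Poisson 95% interval, which covers counting error only, and open circles for 0 UMIs. CCR2- macrophage-like cells are the highest class for 6 genes, neutrophil-like cells are the highest for *St3gal6*, and *Sall1* is at 0.

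Most UMIs of each counted gene came from the CCR2- class, except for *St3gal6* in the KO library. This class gave 95.7% of WT and 89.6% of KO *Fcrls* UMIs, 93.3% and 93.2% of *Slco2b1* UMIs, and 90.7% and 82.1% of *Gpr34* UMIs. *Tmem119* had 81.5% and 59.3% of its UMIs there and *St3gal6* 67.1% and 42.4%, and *Sall1* had none. Fewer cells of a class and less RNA per cell both lower such a share, and the KO library held fewer CCR2- cells. Smaller classes also held some of the genes, each in few cells. *Slamf9* stood at 69.8 and 63.0 CPM in dendritic cell-like cells, and *Slco2b1* at 88.4 and 173 CPM in 28 and 15 mast cell and basophil-like cells, where 1 WT cell held 50% and 1 KO cell 42.9% of the UMIs.

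Most single CCR2- macrophages held several of these transcripts at once. At the depth of 5800 UMIs, 991 of 1136 WT cells (87.2% [85.2–89.1]) and 387 of 495 KO cells (78.2% [74.3–81.7]) held UMIs of at least 2 of the 9 genes, a difference of −9.05 points [−13.3 to −5.1]. It was −4.09 points in female-linked cells alone and −4.24 points without a cluster led by *Saa3* (described below), a choice made after seeing the data. Inside the cluster led by *Ccl8* it was −12.9 points [−21.6 to −4.84]. It was −16.7 and −17.7 points in those led by *Hist1h2ae* and *Cdc20*, of 18 and 15 KO cells. In the other clusters of the class its interval held no difference, with higher KO shares in those led by *Olfml3*, *Gdf15* and *Cd207*. Over the whole class the median was 4 genes per cell in WT and 3 in KO, and the highest was 8. None of the 9 was seen in 5.37% [4.13–6.84] of WT and 11.9% [9.20–15.1] of KO cells. The share with at least 2 was 28.5% and 29.9% in CCR2+ macrophage-like cells, 4.83% and 2.88% in monocyte-like cells and 0.917% and 1.504% in B and T cell-like cells, which serve as the background. Thinning left out 106 WT and 60 KO cells of the CCR2- class, whose median depths before thinning were 22156.5 and 23611 UMIs, against 10090 and 12709 in B and T cell-like cells.

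**Figure D2:**
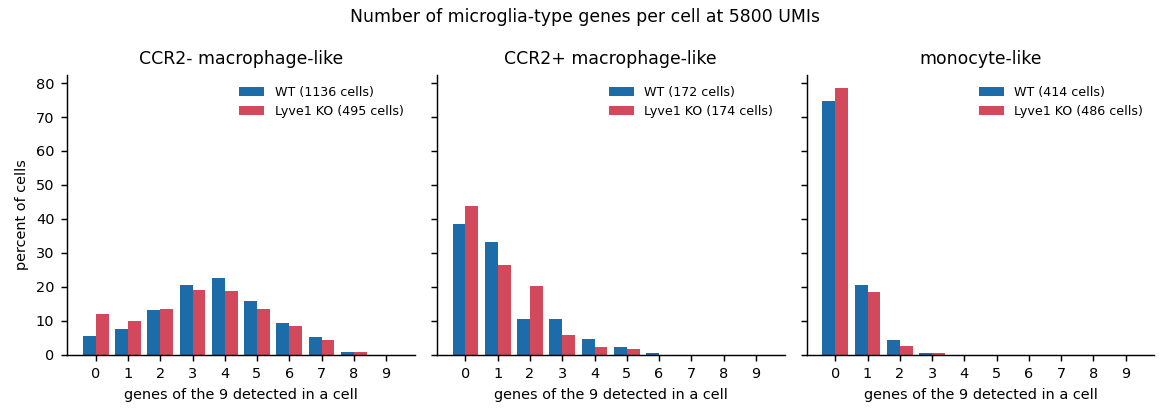
Share of cells (y axis, percent) by the number of the 9 genes with at least 1 UMI (x axis) after thinning every cell to 5800 UMIs, for WT and *Lyve1* KO cells. CCR2- macrophage-like cells centre on 4 genes in WT and 3 in KO, whereas most monocyte-like cells hold none.

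Gene by gene, the share of CCR2- macrophage-like cells with a UMI differed widely. *Fcrls* was seen in 86.4% of WT and 78.4% of KO cells after thinning (87.4% and 79.3% unthinned), and in 0 of 545 and 0 of 798 B and T cell-like cells, which allows up to 0.55% and 0.376%. *P2ry12* was seen in 58.9% and 49.3% of CCR2- cells, above its background of 1.10% and 1.25%, and in 10.1% and 7.61% of monocyte-like cells. *Olfml3* was seen in 21.3% and 22.6% (37.8% and 36.2% unthinned), a difference of 1.32 points [−2.94 to 5.83] between the libraries, against a background of 0.183% and 0.501%. *Slamf9* was seen in 43.8% and 35.8% of CCR2- cells and in 4.59% and 4.32% of monocyte-like cells. T cell-like cells held it in 0.448% and 0% and B cell-like cells in 6.52% and 6.93%, so T cell-like cells and not B cell-like cells were taken as its background. That choice was made from these shares, so a share above it is a description only. *St3gal6* was seen in 37.1% and 34.7% of CCR2- cells and in 16.7% and 20.6% of B and T cell-like cells, in similar shares of each, so neither was taken as its background.

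Within the CCR2- class the 9 genes were far from even, and 2 clusters lay at its ends. A cluster led by *Olfml3*, *Gpr34* and *Fcrls* held 400 WT and 145 KO cells, 32.2% [29.6–34.9] and 26.1% of the class. Since 7 of the 9 genes are among the 10 that lead it, their high level there describes the cluster and is no finding, although they took no part in the clustering. *Fcrls* stood at 1108 and 1158 CPM in it, *Gpr34* at 208 and 234 CPM and *Olfml3* at 115 and 146 CPM. None of its 386 WT and 141 KO cells at thinned depth lacked all 9. The other end was a cluster led by *Saa3*, *Prg4* and *Marco*, genes of an acute-phase protein, a lubricating proteoglycan and a scavenger receptor known from macrophages of body cavities. It held 59 WT and 56 KO cells, 4.75% [3.64–6.09] and 10.1% [7.71–12.9] of the class. *Fcrls* stood at 32.9 and 4.52 CPM there, *Gpr34* at 3.22 and 1.94 CPM and *Olfml3* at 2.50 and 1.61 CPM, and 62.1% and 73.1% of its thinned cells held none of the 9. In both libraries 6 of the 8 counted genes had their lowest CCR2- level in this cluster. The exceptions were *Tmem119*, lowest there in the KO library and not in WT, and *Slamf9*.

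Not all 9 followed a single order over the clusters. In the cluster led by *Ccl8*, *Cd209f* and *Lyve1*, the resident macrophages that carry most *Lyve1*, some of the genes stayed near their level over the whole class. These were *Fcrls* (667 and 563 CPM), *Gpr34* (118 and 98.2 CPM), *P2ry12* (151 and 124 CPM) and *Slco2b1* (130 and 131 CPM). *Fcrls*, *Gpr34* and *P2ry12* stood below the class in both libraries and *Slco2b1* above it. *Olfml3* (3.89 and 6.43 CPM), *Tmem119* (4.48 and 4.63 CPM) and *Slamf9* (15.4 and 20.6 CPM) were low in those same cells. The cluster led by *Cd207*, *Vsig4* and *Clec4f*, genes of C-type lectin and complement receptors, showed the opposite split in part. It held only 73 WT and 17 KO cells, in which 3 counts make 2.09 and 8.05 CPM. *Slco2b1* was low there, at 9.05 and 10.7 CPM, beside *Slamf9* at 175 and 427 CPM and *Tmem119* at 84.3 and 77.8 CPM. A cluster of shallow cells (median 6354 and 4562 UMIs) led by *Gm26917* held the highest *St3gal6*, 152 and 270 CPM, and low *Slamf9*, 16.7 and 16.2 CPM. The CCR2+ class was a single cluster led by *Spp1* and *Mmp12*.

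**Figure D3:**
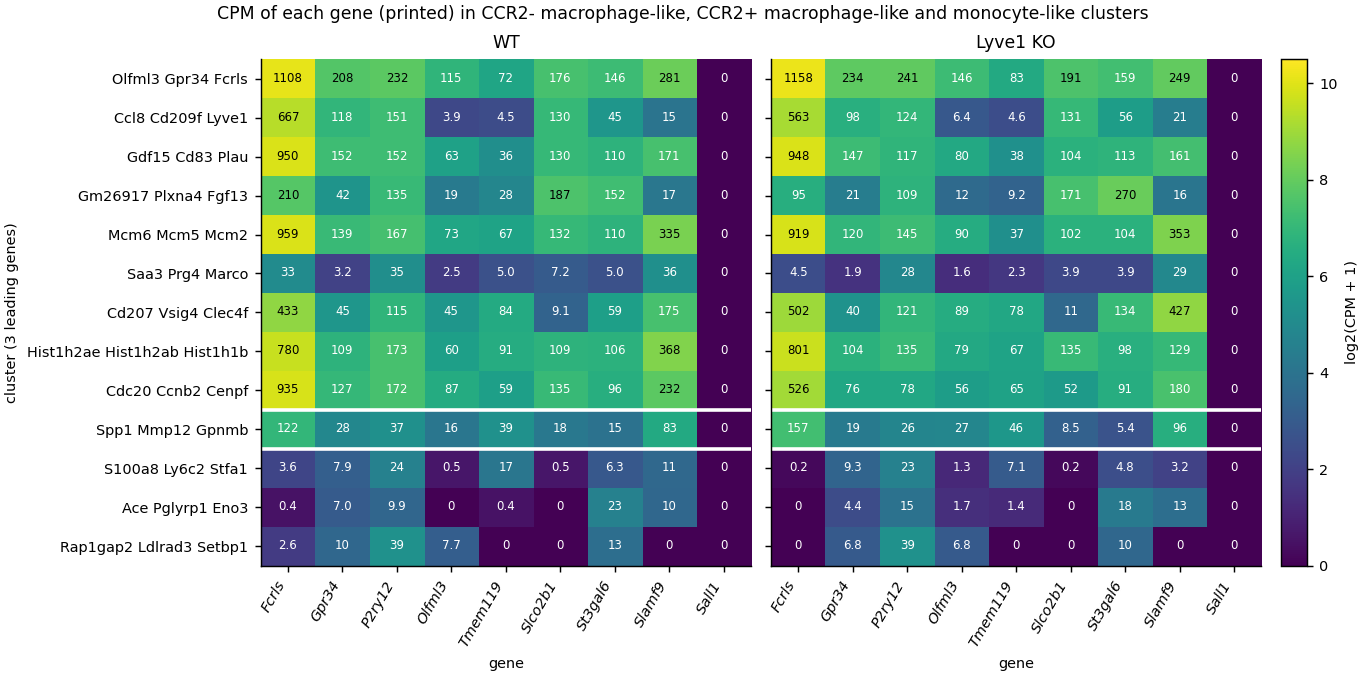
Level of each gene (columns, CPM printed in each cell, colour as log2(CPM + 1)) in 9 CCR2- macrophage-like clusters, 1 CCR2+ cluster and 3 monocyte-like clusters (rows, named by 3 leading genes), WT on the left and *Lyve1* KO on the right, with white lines between the classes. *Olfml3*, *Tmem119* and *Slamf9* are low in the cluster led by *Ccl8*, where *Fcrls*, *Gpr34*, *P2ry12* and *Slco2b1* stay near their level over the CCR2- class. The cluster led by *Saa3* is low in all.

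Over all CCR2- macrophage-like cells pooled, *Olfml3* was seen more often together with each of the other 7 counted genes, in both libraries. *Fcrls* was seen in 96.3% of WT cells with an *Olfml3* UMI and 83.8% of those without, and in 99.1% and 72.3% of KO cells. *P2ry12* was seen in 70.7% and 55.7% of WT and 74.1% and 42.0% of KO cells. Among WT CCR2- macrophage-like cells with an *Olfml3* UMI (242 cells), 64.5% also held *Slamf9* and 37.6% *Tmem119*, against 38.3% and 14.9% of the 894 without one. In KO cells the shares were 70.5% and 34.8% of 112 cells against 25.6% and 11.2% of 383. *Folr2*, a folate receptor of *Lyve1*-type resident macrophages and no member of the set, went the other way, in 40.9% against 59.6% of WT and 42.9% against 60.1% of KO cells. *Ighm*, an antibody heavy chain that macrophages are not known to make, was also seen more often with *Olfml3*, in 51.7% against 36.1% of WT and 48.2% against 35.8% of KO cells. It stood at 228 and 222 CPM in the *Olfml3* cluster and 0.70 and 0 CPM in the *Cd207* cluster, and its part in the result was not tested. All these shares pool clusters that differ in the genes. Inside the *Olfml3* cluster, *Olfml3* was seen in 39.7% of WT cells with a *Gpr34* UMI and 27.2% of those without. The KO shares there were 42.4% and 44.9%. In the *Ccl8* cluster they were 1.22% of 82 and 1.92% of 104 WT cells and 4.17% of 48 and 1.27% of 79 KO cells. Only 3 WT and 3 KO cells of that cluster held an *Olfml3* UMI, too few to compare.

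Over the 13 macrophage-like and monocyte-like clusters in both libraries (26 points, pairs of which share a library and its depth), the likeness of 2 genes was taken as Pearson's r of log2(CPM + 10), as a description. *Fcrls*, *Gpr34* and *P2ry12* formed the closest trio, at r from 0.91 to 0.94. *Olfml3*, *Tmem119* and *Slamf9* formed another, at 0.89 to 0.90, and *Slco2b1* was least like *Tmem119* (0.52) and *Slamf9* (0.53). Of 9212 genes, those most like *Fcrls* were *Fads1*, a fatty acid desaturase (0.978), *P2ry6*, the UDP receptor (0.961), and *Pea15a* (0.961). *P2ry6* was also among the 3 most like *Gpr34* (0.961, with *Cxxc5* and *Fads1* at 0.934) and *P2ry12* (0.948, after *Cep68* at 0.953 and *B3galnt1* at 0.949). For *Olfml3* they were *Cd276* (0.910), *Ch25h*, the cholesterol 25-hydroxylase (0.871), and *P2ry13*, another ADP receptor (0.865). *Cd72*, an inhibitory lectin, was among the 3 for both *Tmem119* (0.918, between *Clec5a* at 0.926 and *Scimp* at 0.865) and *Slamf9* (0.906, before *Arrb2* at 0.900 and *Pdlim4* at 0.895). *St3gal6* was most like *Col14a1* (0.912), *2610203C22Rik* (0.907) and *Adam19* (0.906), and *Slco2b1* most like *Reps2* (0.936), *Cass4* (0.936) and *Prune2* (0.928).

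Between genotypes, all 8 counted genes were lower in KO than in WT CCR2- macrophage-like cells, by less than 2-fold. Of all genes counted in this class 68.6% were lower in KO too. The widest gaps were for *Slamf9*, 188 against 131 CPM, a log2 ratio of KO over WT of −0.51 [−0.59 to −0.44], and *Tmem119*, 47.1 against 34.1 CPM, −0.47 [−0.62 to −0.32]. *P2ry12* followed at −0.36 [−0.44 to −0.28], *Fcrls* at −0.32 [−0.35 to −0.28], *Gpr34* at −0.28 [−0.36 to −0.20] and *Slco2b1* at −0.23 [−0.31 to −0.14]. *St3gal6* stood at −0.13 [−0.23 to −0.04] and *Olfml3* at −0.11 [−0.23 to 0.01], the 1 interval that held no difference. The median of the 8 was −0.30, beside −0.10 over all 11119 genes with at least 100 UMIs, whose 10th to 90th percentiles ran from −0.42 to 0.21. *Slamf9* and *Tmem119* stood at percentiles 6.23 and 7.83 of those genes, and *Olfml3* at 47.0. None of the 8 was at least 2-fold higher or lower, where 1.3% of all genes were at least 2-fold higher and 0.863% at least 2-fold lower in KO.

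**Figure D4:**
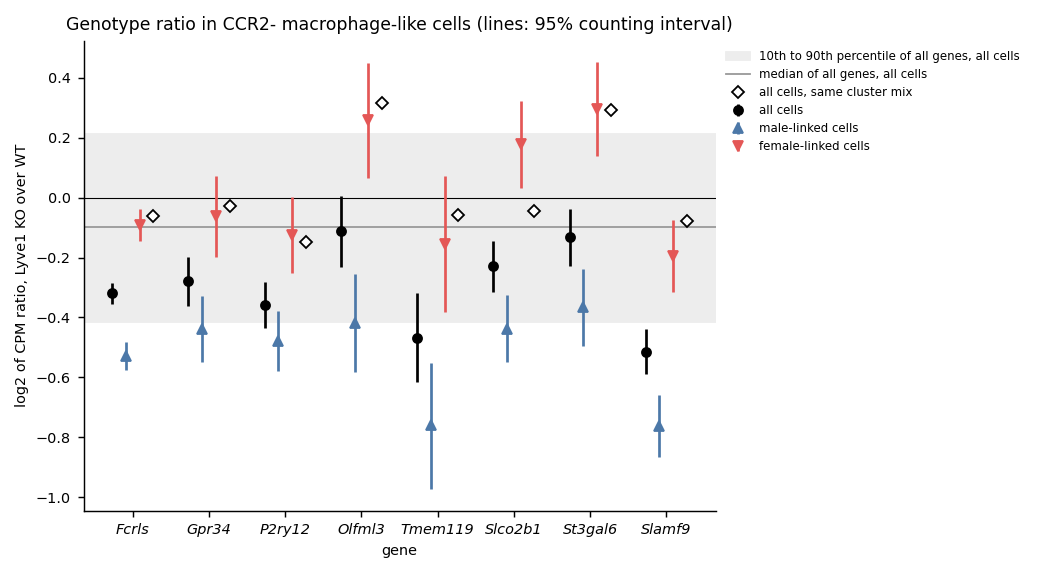
Log2 ratio of CPM, *Lyve1* KO over WT, for each gene in CCR2- macrophage-like cells (points with 95% intervals for counting error only), over all cells, over cells with male-linked or female-linked transcripts, and with both libraries given the same mix of clusters. All 8 ratios over all cells lie below 0, as do 68.6% of those of all genes. Under the common mix 6 of 8 do, and *Olfml3*, *St3gal6* and *Slco2b1* lie on opposite sides of 0 in male-linked and female-linked cells.

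The mix of clusters moved together with this difference. The *Saa3* cluster, low in the microglia-type genes and deep in UMIs, gave 9.58% of WT and 20.7% of KO UMIs of the class, and the *Olfml3* cluster 30.2% and 22.1%. The *Ccl8* cluster, low in *Olfml3*, *Tmem119* and *Slamf9*, gave 17.6% and 25.9% of these UMIs. It held 15.5% [13.5–17.6] of WT and 23.1% [19.6–26.8] of KO cells of the class. With each cluster weighted by its share of the cells of both libraries, the median ratio of the 8 was −0.052, beside −0.049 over all genes, with 6 below 0 and 2 above. Under that mix *Slamf9* stood at −0.08, *Tmem119* at −0.06, *Fcrls* at −0.06 and *P2ry12* at −0.15, and *Olfml3* (0.32) and *St3gal6* (0.29) were higher in KO. Such weights count cells where the ratios over all cells sum UMIs, so more than the mix of clusters changes. The shallow cluster led by *Gm26917* gave 3.48% of WT and 2.88% of KO UMIs of the class but 11.8% and 12.8% of its cells. *St3gal6* stood at 152 and 270 CPM in that cluster. Without the *Saa3* cluster, with UMIs summed, the median ratio of the 8 was −0.11, beside −0.07 over all genes.

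Inside the *Olfml3* cluster 7 of the 8 genes were higher in the KO library, with a median ratio of 0.12 and a range from −0.18 (*Slamf9*, 281 against 249 CPM) to 0.35 (*Olfml3*, 115 against 146 CPM). Inside the *Ccl8* cluster 3 of 6 genes with enough UMIs were lower and 3 higher, with a median ratio of −0.12. Of these 6 genes, 3 had intervals below 0 and 1 had an interval above 0. The cluster led by the mitosis gene *Cdc20* had 7 of 8 lower, with a median of −0.68, and held 15 KO cells, in which *Ccr2* stood at 411 CPM against 81.4 CPM in WT.

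The sex-linked transcripts of the cells moved with the difference too. In cells with male-linked transcripts (817 WT and 278 KO) the median ratio of the 8 genes was −0.46, with all 8 below 0, and in cells with female-linked transcripts (321 and 223) it was −0.08, with 5 below. Over all genes counted the medians in the same cells were −0.12 and −0.05. *Olfml3* stood at −0.42 [−0.58 to −0.25] in male-linked and 0.26 [0.06 to 0.45] in female-linked cells. The *Saa3* cluster made up 5.14% of WT and 14.7% of KO male-linked CCR2- cells, against 4.36% and 5.38% of female-linked ones. Genotype, pool of hearts and library cannot be told apart in this design.

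In CCR2+ macrophage-like cells the genes went different ways. *Olfml3* (0.76 [0.35 to 1.17], 76 and 151 UMIs), *Fcrls* (0.37 [0.22 to 0.53]) and *Slamf9* (0.21 [0.02 to 0.40]) were higher in the KO library. *Gpr34* (−0.57 [−0.95 to −0.18]), *P2ry12* (−0.51 [−0.84 to −0.18]) and *Slco2b1* (−1.04 [−1.59 to −0.50], 82 and 47 UMIs) were lower. *Tmem119* stood at 0.22 [−0.06 to 0.50], an interval that held no difference. *Fcrls* turned to −0.18 in male-linked cells and stood at 0.89 in female-linked ones. When macrophages were divided by whether a *Ccr2* UMI was counted instead of by cluster, *Fcrls* (−0.60), *Olfml3* (−0.39), *Slamf9* (−0.04) and *Tmem119* (−0.32) all turned below 0. 1 KO cell held 21.9% of the *Olfml3* UMIs, and 1 held 11.6% of the *Slamf9* UMIs. The shares of thinned CCR2+ cells with a UMI did not show these rises apart from counting error. *Fcrls* was seen in 26.7% of WT and 25.9% of KO cells, −0.88 points [−10.1 to 8.36]. *Slamf9* was seen in 26.7% and 19.5%, −7.20 points [−16.0 to 1.70], and *Olfml3* in 8.14% and 10.3%, 2.21 points [−4.06 to 8.51]. *St3gal6* had only 69 and 30 UMIs, too few to be counted with the others, and stood at −1.44 [−2.11 to −0.80]. *Slco2b1* was the 1 of 7 genes at least 2-fold lower and none was at least 2-fold higher, where 0.91% of 7803 genes were lower and 0.641% higher by that much. The 7 had a median of 0.21, beside −0.04 over all genes.

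In monocyte-like cells 5 of the genes reached 100 UMIs, and *Tmem119* was the 1 at least 2-fold lower in KO, at 93 and 49 UMIs, 11.1 and 4.70 CPM (−1.25 [−1.78 to −0.73]). Over all 8912 genes 0.729% were at least 2-fold lower and 0.202% at least 2-fold higher. Of 31 counted genes of a fixed list of other homeostatic microglia genes (described below), 15 had ratios below 0 and 16 above. Of them *C1qa*, *C1qb*, *C1qc*, *Ltc4s* and *Rgs10* were at least 2-fold lower in KO. Of 10 counted genes of border-associated macrophages (also below) *Mrc1* and *Pf4* were at least 2-fold lower and *Ednrb* at least 2-fold higher. The cause of these differences was not tested. *P2ry12* (0.06 [−0.24 to 0.35]), *Gpr34* (−0.06 [−0.55 to 0.44]) and *St3gal6* (−0.24 [−0.65 to 0.18]) had intervals that held no difference. *Slamf9* (84 and 67 UMIs) was lower in KO, at −0.65 [−1.13 to −0.17]. *Tmem119* came from the cluster led by *S100a8* and *Ly6c2*, the classical monocytes, at 16.6 and 7.06 CPM, and stood at 0.41 and 1.38 CPM in the cluster led by *Ace*. *P2ry12* was present in all 3 monocyte-like clusters, from 9.92 to 38.6 CPM in WT.

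Cells scored to be in S or G2/M phase held more *Slamf9* and *Tmem119*. *Slamf9* had 142 CPM (WT) and 98.5 CPM (KO) in CCR2- cells called G1, 269 and 246 CPM in those called S, and 271 and 210 CPM in those called G2/M. *Tmem119* stood at 37.6 and 29.8 CPM in G1, 62.0 and 41.9 CPM in S and 68.3 and 54.8 CPM in G2/M. *Gpr34*, *P2ry12* and *Slco2b1* went the other way in G2/M, at 108 and 70.2, 151 and 87.6, and 113 and 77.3 CPM. In G1 they stood at 140 and 114, 172 and 134, and 133 and 113 CPM. From G1 to G2/M *Fcrls* was higher in WT and lower in KO. *Olfml3* was higher and *St3gal6* slightly lower in both libraries, with intervals that overlapped between G1 and G2/M in each. G1 was called in 868 WT and 438 KO cells, S in 243 and 69 and G2/M in 131 and 48. Phase calls also read free RNA, and the part of it was not tested.

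Other genes of the same biology were read from fixed lists, chosen with earlier results of these cells known. Of 48 further homeostatic microglia genes, 38 had at least 100 UMIs in CCR2- macrophage-like cells, of which 30 had ratios below 0 and 8 above, with a median of −0.14. Over all 11119 genes 68.6% of ratios were below 0 and the median was −0.10. Of these genes 1.3% were at least 2-fold higher and 0.863% at least 2-fold lower in KO. Only *Crybb1*, a crystallin used as a microglia marker, was at least 2-fold lower, with 248 and 60 UMIs (a log2 ratio of −1.09), and none was at least 2-fold higher. *Crybb1* stood at −1.15 under the common mix of clusters and at −1.27 [−1.95 to −0.63] in the *Ccl8* cluster. The cluster led by *Gdf15* held 41 WT and 0 KO UMIs of it. In the *Olfml3* cluster it stood at −0.15 [−0.90 to 0.55], where 1 KO cell held 65.2% of 23 KO UMIs. Of 24 genes of the TGF-beta pathway 20 were counted, 14 below and 6 above 0, with a median of −0.10, as over all genes. *Ltbp1*, which anchors latent TGF-beta in the matrix, stood at 2.30 and 25.8 CPM and *Tgfb2*, a TGF-beta ligand, at 1.51 and 10.4 CPM, both at least 2-fold higher in KO. The ligand *Tgfb3* was at least 2-fold lower, at 3.36 and 1.27 CPM. The *Saa3* cluster held 94.0% of WT and 86.8% of KO *Ltbp1* UMIs. Under the common mix of clusters the log2 ratios of *Ltbp1*, *Tgfb2* and *Tgfb3* were 3.77, 2.25 and −0.69. That mix also weights the *Gm26917* cluster, where 3 KO cells held 51 *Ltbp1* UMIs (118 CPM) and WT cells held 0. In the same cluster *Tgfb2* had 2 WT and 10 KO UMIs. Inside the *Saa3* cluster the log2 ratios were 2.27 for *Ltbp1* and 1.88 for *Tgfb2*.

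Among 19 transcription factors of microglia 15 were below 0 and 1, *Bhlhe40*, was at least 2-fold higher. Over all genes 68.6% were below 0, 1.3% at least 2-fold higher and 0.863% at least 2-fold lower. Of 16 purine receptors and ectonucleotidases 10 were counted, 5 below and 5 above 0, with the UTP receptor *P2ry2* (2.91 and 7.06 CPM) and *P2ry14* at least 2-fold higher. Under the common mix *P2ry2* stood at 0.99, below 2-fold, and the *Saa3* cluster held 28.2% of its WT and 54.7% of its KO UMIs. The spread of *Bhlhe40* and *P2ry14* over the clusters is not given here, so their calls hold for the pooled class only. Of 14 growth and phosphatidylserine receptors and their ligands 11 were counted, and *Csf1*, the ligand of the CSF1 receptor, was the 1 at least 2-fold lower, at 8.63 and 3.40 CPM, or −1.29 under the common mix. The cluster led by *Gdf15* held 47.2% of its WT and 25.5% of its KO UMIs, and 1 WT cell held 31.9% of the WT UMIs there. *Csf1* stood at −1.93 [−2.88 to −1.10] in that cluster. It stood at −0.32 [−1.39 to 0.63] in the *Olfml3* cluster and −0.41 [−1.56 to 0.68] in the *Ccl8* cluster. Of 18 genes of border-associated macrophages, the *Lyve1*-type macrophages of brain membranes and vessels, 9 were below and 9 above 0, with a median of −0.006, and *Lyve1* itself was the 1 at least 2-fold lower.

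**Figure D5:**
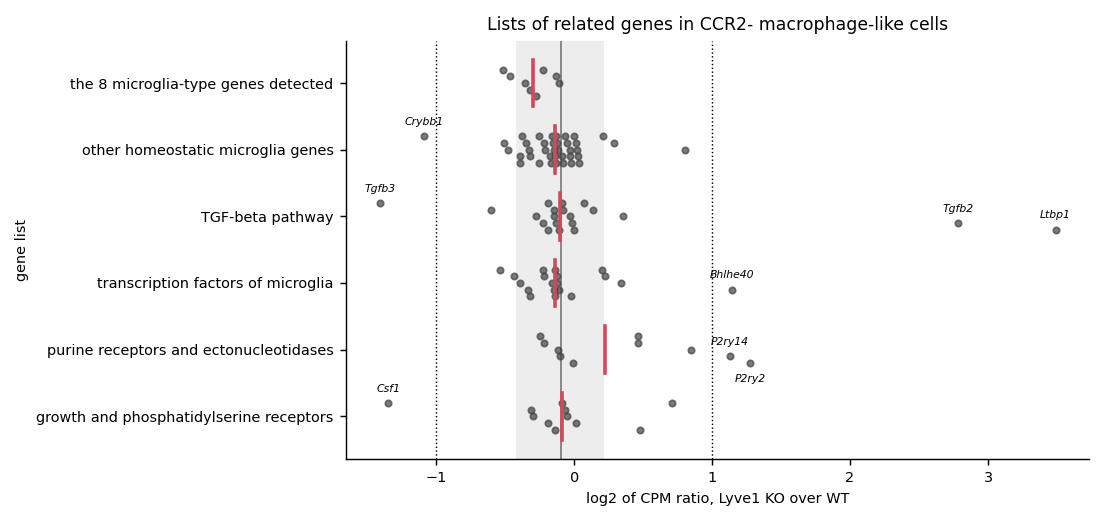
Log2 ratio of CPM, *Lyve1* KO over WT, in CCR2- macrophage-like cells for the genes of each fixed list (1 point a gene, red line at the list's median) beside the 8 counted microglia-type genes. The grey band spans the 10th to 90th percentiles of all genes, the grey line their median and the dotted lines 2-fold, and the list medians run from −0.30 for the microglia-type genes to 0.22 for purine receptors and ectonucleotidases.

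Markers of other cell types were counted in CCR2- macrophage-like cells too, and their part in the results was not tested. The 8 platelet markers summed to 37.7 CPM in WT and 19.1 CPM in KO cells, nearly all *Ppbp* (34.5 and 16.2 CPM), with 2 of the 8 at 0 in KO. At least 1 platelet marker was seen in 10.3% of WT cells with a *P2ry12* UMI and 11.3% of those without, and in 9.02% and 4.78% of KO cells. The 9 fibroblast markers summed to 23.2 and 27.2 CPM, and were seen in 5.37% of WT cells with an *Olfml3* UMI and 11.3% of those without, and in 10.7% and 10.4% of KO cells. The 9 endothelial markers summed to 31.0 and 34.9 CPM and the 10 cardiomyocyte markers to 115 and 94.9 CPM. The 9 B cell markers summed to 176 and 163 CPM, most of it *Ighm*, and the 10 neutrophil markers to 60.2 and 74.7 CPM. The 7 erythroid markers summed to 43.0 CPM in WT and 6.79 CPM in KO cells, most of it the globin *Hbb-bs* (32.6 and 5.00 CPM).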

How the data were processed

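The authors aligned reads to mm10 with Cell Ranger, version 8.0.1 per the file headers and the submitters' processing notes (the study's reporting summary names another version), and deposited 1 filtered table of UMI counts per library (5713 WT and 5285 *Lyve1* KO barcodes, 67968938 and 61555917 UMIs). 9 barcodes were shared by the libraries. Barcodes with at least 500 genes, 250 UMIs and at most 30% mitochondrial UMIs were kept (4285 and 3464; 601 and 874 were over the mitochondrial limit). The doublet caller (Scrublet in scanpy 1.11.5) marked 1 and 4 barcodes by its own threshold, so the 98 and 73 barcodes with the highest scores, at 0.4% per 1000 barcodes, were left out. Which heart a cell came from was not analysed here.

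Counts were clustered in Seurat 5.3.0 (R 4.3.3; 2000 variable genes, 30 dimensions, resolution 0.8, cell cycle scores regressed out), without the 9 genes, related microglia genes, *Lyve1* and sex-linked genes. Macrophage-like and monocyte-like cells were then clustered again, into 16 clusters. A cluster was named "-like" from listed markers, where at least 3 were seen in at least 25% of cells; this rule was set after seeing the data. Levels are CPM of the summed UMIs of a class, with exact Poisson intervals, and ratios have exact conditional binomial intervals (scipy 1.17.1). Shares have Clopper-Pearson intervals and their differences Newcombe intervals. A ratio was counted where both libraries together held at least 100 UMIs. For shares, cells were thinned to 5800 UMIs. A limit for 0 is 3 counts. The ratio code was tested on simulated data.

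The 9 genes and the other lists were chosen with earlier results of these data known. Named were the 9 genes and *Lyve1*, the 3 genes most like each by Pearson's r, and the 3 highest and 3 lowest ratios of the related lists. *Bhlhe40*, *P2ry14*, the genes that lead clusters, *Ccr2*, *Ighm*, *Folr2*, *Ppbp* and *Hbb-bs* were named besides, after their values were seen. So were the genes of the related lists past 2-fold in monocyte-like cells. The strain of the pools is not given in the sources used here.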

Additional observations from a re-analysis of the deposited data

Results flagged for a closer look

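The differences that follow were not tested: each rests on 1 library per genotype. The log2 ratio of KO over WT had opposite signs, with intervals apart from 0, in CCR2- and CCR2+ macrophage-like cells for *Fcrls* and *Slamf9*. The CCR2+ ratio minus the CCR2- ratio was 0.690 for *Fcrls* and 0.725 for *Slamf9*. In the KO CCR2+ class 1 cell held 11.6% of the 528 *Slamf9* UMIs, and the interval of that ratio began at 0.02. Under the common mix of clusters the CCR2- ratios of *Fcrls* and *Slamf9* were −0.06 and −0.08. With macrophages divided by a *Ccr2* UMI the CCR2+ ratios were −0.598 and −0.0417, so that the signs were no longer opposite, and *Fcrls* was −0.182 in male-linked CCR2+ cells. Within the CCR2- class 3 genes had opposite signs in cells with male-linked and with female-linked transcripts. The female-linked ratio minus the male-linked ratio was 0.674 for *Olfml3*, 0.661 for *St3gal6* and 0.615 for *Slco2b1*.

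*Sall1* was counted only outside the classes compared. All 25 UMIs of the WT library came from 5 cells, with up to 13 in 1 cell, and all 4 of the KO library from 1 cell. These cells were in an unnamed cluster of 26 WT and 35 KO cells led by *Fabp4*, *Sparc* and *Col4a1*.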

How the results depend on the processing

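No paired analysis was possible because each genotype has 1 library. In CCR2- macrophage-like cells 0 of the genes passed 2-fold under every alternative run, and 6 stayed highest in this class. The median log2 ratio of the 8, −0.30, was −0.148 as a mean over cells, −0.370 with stricter limits on cells, −0.0522 with a common mix of clusters, −0.458 in male-linked and −0.0768 in female-linked cells. Chosen after seeing the data, the common mix within male-linked cells gave −0.117 and within female-linked cells −0.00122, and leaving out the *Saa3* cluster gave −0.110. Over all genes the medians were −0.119 in male-linked and −0.0548 in female-linked cells. With the common mix within these cells they were −0.0435 and −0.0608, and without the *Saa3* cluster −0.0684. The difference in the share of cells with at least 2 genes, −9.05 points, was −4.09 in female-linked cells and −4.24 without the *Saa3* cluster. Inside the *Ccl8* cluster it was −12.9 points and inside the *Olfml3* cluster 0.395 points. The 1 gene past 2-fold in CCR2+ macrophage-like cells became 0 with 10 CPM added, by the mean over cells, with all variable genes, without cell cycle regression, and in male-linked or female-linked cells. That gene, *Slco2b1*, stood at −0.570, −0.906 and −0.870 in the first 3 of these and had under 100 UMIs in the others. The count became 2 with stricter limits or at least 20 UMIs, and 3 when cells were divided by a *Ccr2* UMI. The 1 gene in monocyte-like cells, *Tmem119*, became 0 with 10 CPM added (−0.525) and in male-linked or female-linked cells, where it had under 100 UMIs, and 3 at 20 UMIs; it passed 2-fold in 10 of the 11 alternatives that gave it a value. The cause of the other moves was not tested. Ratios of genes with few UMIs rest on small counts, such as *St3gal6* in CCR2+ (69 and 30 UMIs) and *Fcrls* in monocyte-like cells (22 and 1 UMIs).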

Other observations

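Single cells of other classes held some of these transcripts. In dendritic cell-like cells *Fcrls* had 3 WT and 93 KO UMIs (1.08 and 32.3 CPM), the latter from 7 cells, of which 1 held 31.2%. *Gpr34* stood at 41.1 and 54.4 CPM in mast cell and basophil-like cells and at 13.9 and 18.2 CPM in NK cell and ILC-like cells.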
